A study of Oryza sativa Japonica Group with 15 samples.

Results

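The JAZ repressors and the transcription factor MYC2 were followed in roots of the rice cultivar Kitaake (Oryza sativa Japonica Group) after the shoots were sprayed with a resistance inducer, a compound that raises a plant's readiness for defence. The 10 genes, 9 JAZ genes and MYC2 (Os10g0575000), were taken by identifier out of 36747 features in the table of normalised reads. All 10 had a mean of at least 5 normalised reads and entered the tests with the rest of 18316 such genes. The number in a JAZ name differs between naming schemes, so each gene is given with its identifier and TIFY name.

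There were 5 groups of 3 libraries, and each library came from the pooled roots of 4 plants. PA2x plants were sprayed with piperonylic acid (PA, 300 µM), an inhibitor of cinnamate 4-hydroxylase in the phenylpropanoid pathway, on days 7 and 13 after transplantation. PA1x plants had the same dose on day 13 only. ASM plants had acibenzolar-S-methyl (250 µM, also called BTH), a functional analogue of salicylic acid, and BABA plants had R,S-BABA (3.5 mM), beta-aminobutyric acid, which primes defence in many plants, both on day 13. Mock plants are labelled with a treatment on day 13, so no mock group matched the double spray of PA2x. All sprays held Tween 20 and all roots were taken on day 14. Doses differed between compounds, so a comparison between compounds is one of compound and dose together.

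The libraries held 4851344 to 6815702 reads in PA2x, 6576300 to 8364583 in PA1x, 6066946 to 6911751 in ASM, 4130194 to 6717016 in BABA and 7392515 to 9480830 in mock. In these bulk roots, fewer cells of a type and less RNA per cell cannot be told apart.

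Jasmonate signalling turns on the removal of JAZ proteins. At rest, JAZ proteins bind MYC2 and related bHLH factors and recruit TOPLESS-type co-repressors, which keeps jasmonate target genes off. The isoleucine conjugate of jasmonate brings JAZ proteins to the F-box receptor COI1, they are degraded, and MYC2 is freed. JAZ genes are themselves among the targets, and their transcripts are often used as a readout of the pathway. In roots the hormone slows elongation and takes part in defence.

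The 9 JAZ genes fall into small lineages. JAZ9 (TIFY11a, Os03g0180800), JAZ11 (TIFY11c, Os03g0180900) and JAZ10 (TIFY11b, Os03g0181100) stand side by side on chromosome 3, with 0 other protein-coding genes between neighbours in the RefSeq annotation. JAZ13 (TIFY11e, Os10g0391400) and JAZ12 (TIFY11d, Os10g0392400) are close together on chromosome 10, with 2 protein-coding genes between them. JAZ6 (TIFY10a, Os03g0402800), JAZ7 (TIFY10b, Os07g0615200) and JAZ8 (TIFY10c, Os09g0439200) form the TIFY10 lineage, and JAZ1 (TIFY3, Os04g0653000) stands alone. Near copies within a lineage may share reads, which makes the value of any single TIFY11 gene uncertain.

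The JAZ genes as a group were lowest after a single PA spray. Together the 9 genes took 0.347 to 0.468% of the normalised reads in the PA2x libraries, 0.208 to 0.232% in PA1x, 0.364 to 0.452% in ASM, 0.340 to 0.432% in BABA and 0.271 to 0.375% in mock. The PA1x range lay below those of the other 4 groups, and the mock range overlapped those of the 3 other treatments. PA1x had the lowest mean of the 5 groups for 8 JAZ genes, while JAZ8 and MYC2 were lowest in mock. The highest group mean was 3.15 times the lowest for JAZ13 and 1.34 times for JAZ1, with 1.44 times for MYC2. Between neighbours in the order of the 5 means, the pair called different was mock and PA1x for JAZ6, JAZ9, JAZ10 and JAZ13, and no pair was called for the other 6 genes.

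A moderated F test in limma called 9 of the 10 genes as differing among the groups, against 12.2% of all tested genes. The p-values, adjusted by Benjamini and Hochberg's method over all tested genes here and throughout, ran from 4.78e-06 for JAZ13 to 0.0414 for JAZ11. JAZ12 did not pass (adjusted p = 0.0694). The count of 9 was 5 without PA1x replicate 3.

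**Figure D1:**
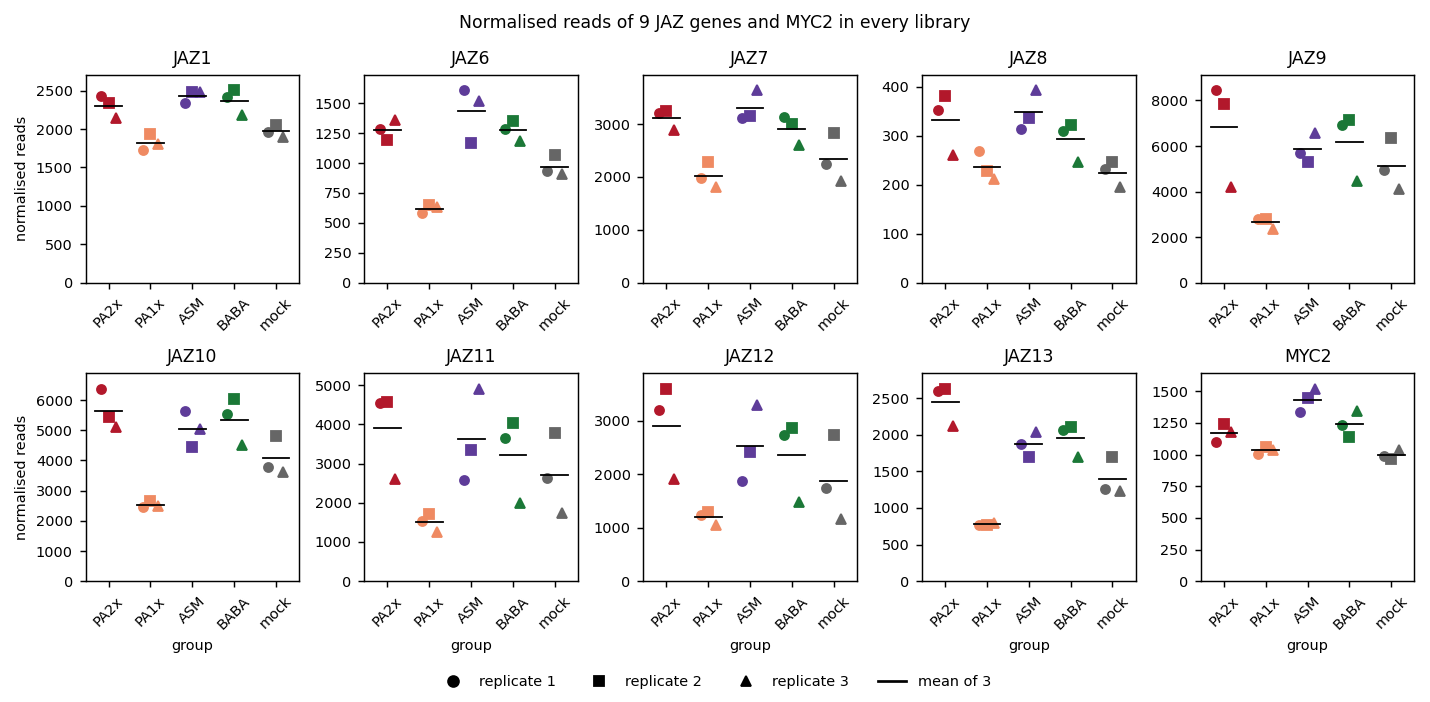
Normalised reads (y axis, from 0) of the 9 JAZ genes and MYC2 in each of the 15 libraries by group (x axis); symbols give the replicate number and the black line the mean of 3. The PA1x libraries of JAZ6, JAZ9, JAZ10, JAZ11 and JAZ13 lie below the libraries of the other 4 groups, whereas MYC2 has its highest mean in ASM.

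The comparison of PA2x with PA1x asks what the added spray on day 7 changed. JAZ13 differed most. It had 2599, 2631 and 2116 normalised reads in PA2x, against 773, 762 and 795 in PA1x, a rise of 3.13-fold (log2 fold change 1.65 ± 0.13 SE, adjusted p = 1.3e-06). The lowest PA2x library was far above the highest PA1x library.

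JAZ10 had 6381, 5446 and 5123 normalised reads in PA2x, against 2451, 2654 and 2478 in PA1x, and rose 2.23-fold (adjusted p = 4.17e-05). JAZ6 had 1283, 1192 and 1361 in PA2x, against 581, 647 and 628 in PA1x, and rose 2.06-fold (adjusted p = 1.97e-05). In both genes the groups were well separated and the PA1x libraries lay close together. JAZ9, which in rice also acts in salt tolerance, had 8464, 7868 and 4189 in PA2x, against 2788, 2789 and 2359 in PA1x (2.48-fold, adjusted p = 0.0015). Replicate 3 of PA2x, though lower than the other PA2x libraries, was still above every PA1x library.

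JAZ11, linked in rice to the response to phosphate shortage, had 4536, 4569.6 and 2607 normalised reads in PA2x, against 1529.8, 1719 and 1266 in PA1x (2.53-fold, adjusted p = 0.00977). JAZ12 had 3204, 3605 and 1909 in PA2x, against 1232, 1299.9 and 1058 in PA1x (2.35-fold, adjusted p = 0.0155). PA2x replicate 3 was again the low one of its group for both genes. JAZ7 had 3214, 3238 and 2892 in PA2x, against 1972, 2285 and 1806 in PA1x (1.55-fold, adjusted p = 0.00576). JAZ1, which acts in flower development and drought response in rice, had 2436, 2335 and 2144 in PA2x, against 1725, 1935 and 1808 in PA1x (1.26-fold, adjusted p = 0.0263). JAZ7 and JAZ1 had the smallest of the called changes, and their groups did not overlap.

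JAZ8, known in rice from defence against bacterial blight, had 353, 381 and 262 normalised reads in PA2x, against 268, 229 and 212 in PA1x, and did not pass. Its difference had a 95% interval of 0.15 to 0.81 on the log2 scale (adjusted p = 0.0607), and 1 PA2x library lay below the highest PA1x library. It passed with edgeR (adjusted p = 0.0488) and DESeq2 (0.0423), and without PA2x replicate 3 or BABA replicate 3 (lowest adjusted p = 0.0102). In all, 8 of the 10 genes were called higher in PA2x, against 8.31% of all tested genes. In 9 of 10, JAZ8 being the exception, PA2x lay wholly above PA1x, against 15.3% of all tested genes. The median JAZ log2 fold change was 1.15, against -0.02 over all tested genes.

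JAZ6, JAZ7, JAZ9, JAZ10 and JAZ13 passed in each of the 15 fits that left out 1 library. JAZ1 did not pass without PA2x replicate 1 or 2 or PA1x replicate 1 or 3 (highest adjusted p = 0.117), JAZ11 without PA2x replicate 1 or PA1x replicate 3 (0.0526), and JAZ12 without PA2x replicate 1 or 2 or PA1x replicate 3 (0.0795). The count of 8 was 5 without PA2x replicate 1 and 5 without PA1x replicate 3.

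Against mock, 4 JAZ genes fell with a single PA spray, against 3.13% of all tested genes called lower. JAZ13 fell by 0.83 on the log2 scale, with 773, 762 and 795 normalised reads in PA1x and 1257, 1698 and 1230.1 in mock (SE 0.13, adjusted p = 0.00222). JAZ6 fell by 0.64, with 581, 647 and 628 in PA1x and 931, 1071 and 906 in mock (adjusted p = 0.00549). In both, the PA1x libraries were close to each other and below the whole mock range. JAZ10 fell by 0.68, with 2451, 2654 and 2478 in PA1x and 3795, 4814 and 3610.01 in mock (adjusted p = 0.0121). JAZ9 fell by 0.94, with 2788, 2789 and 2359 in PA1x and 4959, 6331 and 4101 in mock (SE 0.24, adjusted p = 0.0411). These groups did not overlap either.

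JAZ11 had 1529.8, 1719 and 1266 normalised reads in PA1x and 2619.7, 3775 and 1742 in mock, and did not pass (-0.79, 95% interval -1.46 to -0.12, adjusted p = 0.263). Its highest PA1x library lay just under its lowest mock library, so that 5 of 10 genes had PA1x wholly below mock, against 12.3% of all tested genes. JAZ12 had 1232, 1299.9 and 1058 in PA1x and 1735, 2744 and 1171 in mock (-0.57, 95% interval -1.24 to 0.09, adjusted p = 0.511). Here the ranges overlapped. With the libraries numbered 1 and 2 only, a setting chosen after seeing the data, both JAZ11 (adjusted p = 0.00935) and JAZ12 (0.0385) passed. That setting leaves out mock replicate 3, the lowest mock library of both genes, so these passes add no support. The median JAZ log2 fold change was -0.64, against -0.003 over all tested genes.

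JAZ1 had 1967, 2059 and 1902 normalised reads in mock and a log2 fold change of -0.12 in PA1x against mock (95% interval -0.32 to 0.08). JAZ7 stood at -0.20 (-0.49 to 0.10) and JAZ8 at 0.07 (-0.26 to 0.40), the 1 positive value among the 9. Of the TIFY10 lineage, JAZ6 was called and JAZ7 and JAZ8 were not, and the differences between genes were not tested. JAZ13 and JAZ6 passed whichever library was omitted. JAZ10 did not pass without PA1x replicate 1 or 3 or mock replicate 2 (highest adjusted p = 0.0722). JAZ9 did not pass without PA1x replicate 1, 2 or 3, ASM replicate 2, BABA replicate 1 or mock replicate 1 or 2 (0.203). The count of 4 was 2 without PA1x replicate 1, PA1x replicate 3 or mock replicate 2.

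With 2 PA sprays all 9 JAZ genes had positive values against mock, from 0.22 for JAZ1 to 0.82 for JAZ13. Their median was 0.48, and 49.3% of all tested genes were positive. JAZ13 was the 1 gene called (1.77-fold, 95% interval 0.53 to 1.11 on the log2 scale, adjusted p = 0.00949), against 0.764% of all tested genes called higher. Its PA2x libraries were all above its mock libraries, as were those of JAZ1, JAZ6, JAZ7, JAZ8, JAZ10 and MYC2. That is 7 of 10 genes, against 7.69% of all tested genes with PA2x wholly above mock.

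JAZ9, JAZ11 and JAZ12 overlapped with mock, since PA2x replicate 3 lay within the mock range. Their 95% intervals ran from -0.14 to 0.88, -0.12 to 1.22 and -0.0017 to 1.32. JAZ13 lost its call without PA2x replicate 2 or mock replicate 1 (highest adjusted p = 0.074), and the count was 2 without PA2x replicate 3, where JAZ8 also passed (0.033). In limma on the PA2x and mock libraries alone the count was 0, while edgeR called 1 and DESeq2 called 4, JAZ6, JAZ8, JAZ10 and JAZ13. At an unadjusted p under 0.05 there were 7 in the fit of all libraries.

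With ASM, 3 JAZ genes and MYC2 rose over mock, 4 of 10 against 3.28% of all tested genes called higher. JAZ6 had 1612, 1167 and 1519.7 normalised reads in ASM, against 931, 1071 and 906 in mock (1.47-fold, adjusted p = 0.0133). JAZ8 had 314, 336 and 394 in ASM, against 233, 247 and 196 in mock (1.54-fold, adjusted p = 0.0305). JAZ7 had 3123, 3159.5 and 3645 in ASM, against 2245, 2826 and 1926 in mock (1.43-fold, adjusted p = 0.0424). The 3 called JAZ genes belong to the TIFY10 lineage, and in each the ASM libraries lay above the mock libraries. JAZ1 had 2338, 2486 and 2486 in ASM, against 1967, 2059 and 1902 in mock (1.23-fold, adjusted p = 0.0845). JAZ1 was thus separated from mock but did not pass.

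The TIFY11 genes had log2 fold changes of 0.21 to 0.47 with ASM, with adjusted p from 0.0829 (JAZ13) to 0.74 (JAZ9). JAZ13 had 1875, 1703 and 2039 normalised reads in ASM, against 1257, 1698 and 1230.1 in mock (1.35-fold). JAZ9 had 5701, 5316 and 6563 in ASM and JAZ10 had 5625, 4435 and 5036. JAZ13 was just separated from mock, and JAZ9 and JAZ10 overlapped with it. JAZ11 had 2583, 3358 and 4913 in ASM and JAZ12 had 1869, 2409.6 and 3300.1. ASM replicates 1 and 2 fell inside the mock range of both. With MYC2, 6 of 10 genes had ASM wholly above mock, against 10.9% of all tested genes. The median JAZ log2 fold change was 0.44, against -0.01 over all tested genes.

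The ASM calls of the JAZ genes depended on single libraries. JAZ6 did not pass without ASM replicate 3 or mock replicate 1 or 3 (highest adjusted p = 0.0733), and JAZ8 without these or ASM replicate 2 (0.144). JAZ7 passed in 5 of the 15 fits (highest adjusted p = 0.19), and did not pass after TMM rescaling or with edgeR. The count of 4 was 1 without ASM replicate 3, mock replicate 1 or mock replicate 3, 2 without ASM replicate 2, and 1 with the ASM and mock libraries alone. Without mock replicate 2 it was 5, where JAZ13 also passed (0.0158).

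MYC2, the bHLH activator that JAZ proteins hold in check, rose with ASM. It had 1098, 1238 and 1174 normalised reads in PA2x, 1007, 1058 and 1033 in PA1x, 1338, 1443 and 1521 in ASM, 1231, 1142 and 1341 in BABA, and 991, 967 and 1036 in mock. ASM was highest and mock lowest on average, as for JAZ8, and PA1x overlapped mock. The rise with ASM was 1.43-fold (log2 fold change 0.52 ± 0.09 SE, adjusted p = 0.00318), and this call held in each of the 15 fits that omit a library.

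In PA1x MYC2 stood at 0.05 against mock (95% interval -0.14 to 0.24, adjusted p = 0.93), and in PA2x at 0.18 against PA1x (-0.01 to 0.37, adjusted p = 0.269). In PA2x it stood at 0.23 against mock (0.03 to 0.42, adjusted p = 0.318), and in BABA at 0.31 (0.11 to 0.50, adjusted p = 0.196). In the order ASM, BABA, PA2x, PA1x, mock, no neighbouring pair was called. PA1x was called lower than ASM, at -0.47 (adjusted p = 0.00167).

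BABA gave positive values for all 9 JAZ genes against mock, from 0.25 for JAZ11 to 0.50 for JAZ13, none of them called. JAZ13 had 2070.0, 2106 and 1695 normalised reads in BABA, against 1257, 1698 and 1230.1 in mock (1.41-fold, 95% interval 0.21 to 0.78 on the log2 scale, adjusted p = 0.151). JAZ6 had 1286, 1355 and 1185 in BABA, against 931, 1071 and 906 in mock (1.32-fold, adjusted p = 0.202). The BABA libraries of JAZ6 were all above mock, and replicate 3 of JAZ13 fell just under the highest mock library. JAZ8 had 309.8, 321 and 247 in BABA, JAZ7 had 3135, 2995 and 2611, and JAZ1 had 2414, 2509 and 2178. JAZ9 had 6909, 7141 and 4463 in BABA, JAZ10 had 5528, 6022 and 4512, JAZ11 had 3658, 4026 and 1983, and JAZ12 had 2741, 2869 and 1490.3. BABA replicate 3 was the lowest library of its group in all 9 JAZ genes.

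By limma 0 of the 10 genes passed with BABA, 7 had an unadjusted p under 0.05, and edgeR and DESeq2 called 0 each. Of all tested genes 0.218% were called higher. The median JAZ log2 fold change was 0.36, against -0.009 over all tested genes. In JAZ1, JAZ6, JAZ8 and MYC2 BABA lay wholly above mock, 4 of 10 against 7.67% of all tested genes. The comparisons with mock share its 3 libraries, so that the positive values with PA2x, ASM and BABA are not independent of each other.

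**Figure D2:**
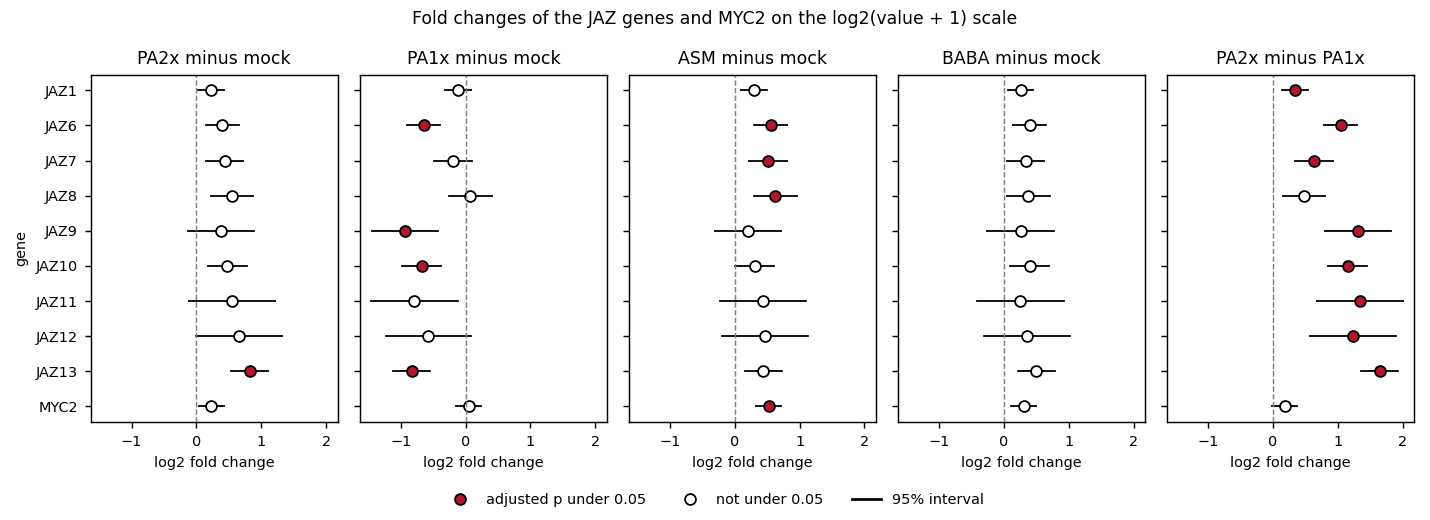
Log2 fold change (x axis, on the log2(value + 1) scale) of the 10 genes (y axis) in 5 comparisons, with 95% intervals from limma; filled points have an adjusted p under 0.05. JAZ values lie left of 0 in PA1x minus mock, except JAZ8 at 0.07, and right of 0 in the other panels, and MYC2 is filled in ASM minus mock.

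Set directly against the other inducers, the 9 JAZ genes were lower with a single PA spray. All 10 genes were called lower in PA1x than in ASM, against 10.4% of all tested genes, with JAZ log2 fold changes of -1.26 (JAZ13) to -0.42 (JAZ1). In each of the 10 genes PA1x lay wholly below ASM, as it did for 18.9% of all tested genes. JAZ1, JAZ6, JAZ7, JAZ9, JAZ10, JAZ13 and MYC2 passed in each of the 15 fits that omit a library. JAZ8 did not pass without PA1x replicate 2 or 3 or ASM replicate 3 (highest adjusted p = 0.107), JAZ11 without PA1x replicate 3 or ASM replicate 3 (0.0789), and JAZ12 without PA1x replicate 1, 2 or 3 or ASM replicate 2 or 3 (0.148).

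In PA1x against BABA 7 genes were called lower, against 7.61% of all tested genes. These were JAZ13 (-1.33), JAZ9 (-1.19), JAZ10 (-1.07), JAZ6 and JAZ11 (-1.04 each), JAZ7 (-0.53) and JAZ1 (-0.38). JAZ12 (-0.93, adjusted p = 0.0784), JAZ8 (-0.31, adjusted p = 0.286) and MYC2 (-0.26, adjusted p = 0.0973) did not pass. JAZ12 passed with DESeq2 (0.0123) and with the PA1x and BABA libraries alone (0.0169). It also passed without PA2x replicate 3, BABA replicate 3, mock replicate 2 or mock replicate 3 (lowest adjusted p = 0.0176). PA1x lay wholly below BABA in 9 of 10 genes, against 15% of all tested genes. JAZ6, JAZ9, JAZ10 and JAZ13 passed in all 15 fits. JAZ1 and JAZ7 did not pass without PA1x replicate 1 or 3 or BABA replicate 1 or 2 (highest adjusted p = 0.0828 and 0.109), and without any 1 of these libraries the count of 7 was 4. JAZ11 did not pass without PA2x replicate 1, PA1x replicate 1, 2 or 3, ASM replicate 2, BABA replicate 1 or 2 or mock replicate 1 (0.208). The comparisons of PA1x with mock, PA2x, ASM and BABA share the 3 PA1x libraries, so that their results are not independent of each other.

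No call was made among the 10 genes in PA2x against ASM, PA2x against BABA or ASM against BABA (limma, 0 each). At an unadjusted p under 0.05 there were 2, 1 and 1 genes, and edgeR and DESeq2 called 0 each. JAZ log2 fold changes ran from -0.15 to 0.38 for PA2x against ASM, from -0.04 to 0.32 for PA2x against BABA and from -0.09 to 0.25 for ASM against BABA. The 95% intervals of the 9 genes reached from -0.55 to 0.85, -0.40 to 0.97 and -0.56 to 0.85, so that differences of that size remain possible. Of all tested genes 1.44, 0 and 0.3% were called in these comparisons.

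Within a group the same libraries were low for many JAZ genes. Mock replicate 3 and BABA replicate 3 were the lowest of their groups for 9 of 9 JAZ genes, PA2x replicate 3 for 8 and PA1x replicate 3 for 5. In ASM, replicate 1 was lowest for 5 and replicate 2 for 4. Mock replicate 2 was the highest of its group for 9 of 9. The labels name no batch. PA2x replicate 3 (4851344 reads) and PA1x replicate 3 (6576300) were the shallowest of their groups, and BABA replicate 3 (6717016) and mock replicate 3 (9480830) the deepest. The part of depth in this spread was not tested.

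This spread was unequal between the genes. The coefficient of variation over the 3 libraries of a group, taken as the median over the 5 groups, was 32.8% for JAZ11, 30.5% for JAZ12 and 21.9% for JAZ9. It was 11.6% for JAZ13, 6.69% for JAZ6, 5.81% for JAZ1 and 6.02% for MYC2. JAZ11 and JAZ12 were thus the most variable members. Both had no call against mock, but neither had JAZ1, the least variable member. By group, the median over the 9 JAZ genes was 11.8% in PA2x, 9.38% in PA1x, 11.8% in ASM, 13.7% in BABA and 18.8% in mock. For the 3709 genes with a mean of 287 or more it was 10.2, 6.39, 10.9, 10.04 and 9.40% in the same order. The JAZ median was above that of all these genes in each group.

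The first principal component of the within-group deviations of all tested genes held 29.6% of their variance. PA2x replicate 3 (-40.2), BABA replicate 3 (-32.3), ASM replicate 1 (-27.5), mock replicate 3 (-25.9) and PA1x replicate 3 (-14.9) lay at its low end. At the high end were mock replicate 2 (28.3), ASM replicate 3 (27.5) and PA2x replicate 2. JAZ11, JAZ12 and JAZ9 had weights on this axis above those of 97.4, 97.3 and 94.8% of tested genes, whereas JAZ6 stood at 56.0% and MYC2 at 50.03%. What the axis stands for was not tested.

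With each library's position on this axis as a covariate, 7 of the 10 genes were called higher in PA2x, 6 lower in PA1x, 7 higher in ASM and 4 higher in BABA, all against mock. JAZ12 then passed in PA1x against mock at -0.38 (adjusted p = 0.014), against -0.57 without the covariate. The axis was computed from the residuals of these same libraries, so that it lowers the residual spread by construction, and the p-values with it are too small.

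**Figure D3:**
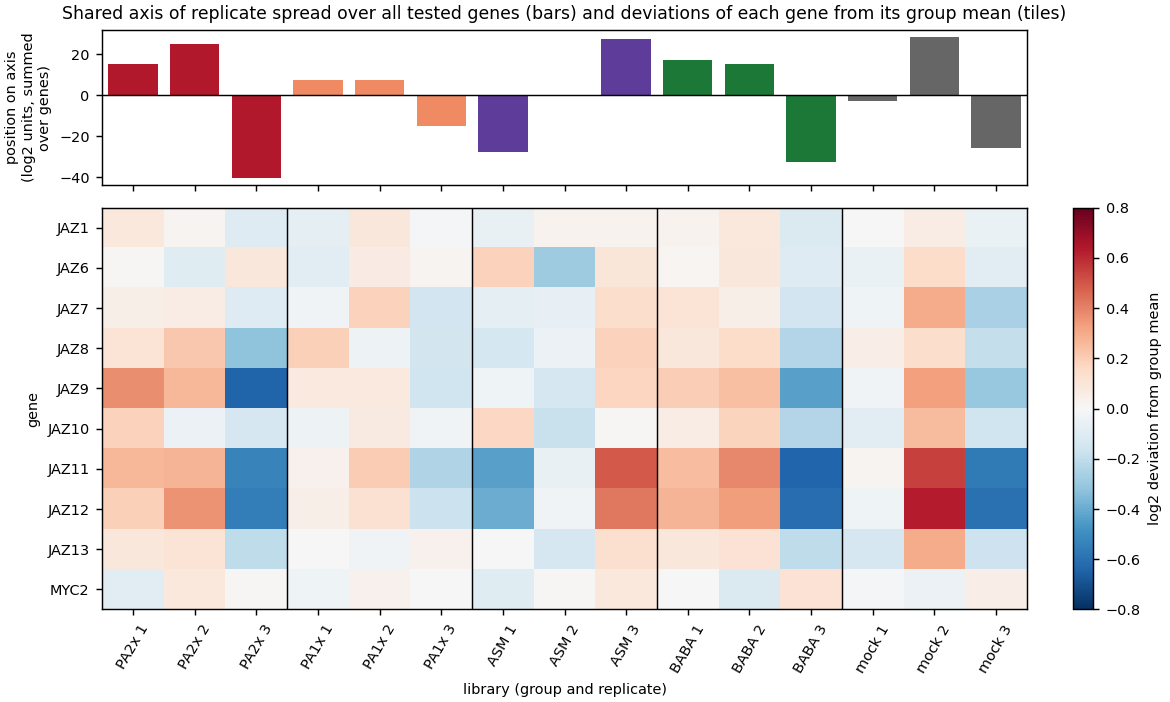
Top, within-group position of each of the 15 libraries on the first principal component of replicate deviations over all tested genes (y axis, log2 units summed over genes with their weights). Bottom, deviation of each gene from its group mean (colour, log2 scale) by library (x axis); JAZ11 and JAZ12 carry dark blue tiles in PA2x, BABA and mock replicate 3, and MYC2 is pale throughout.

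Other genes of the pathway were taken from a list by role, 25 genes of which 22 had a mean of at least 5. Among other JAZ genes, JAZ5 (TIFY9, Os04g0395800) had 1196, 1429 and 758 normalised reads in PA2x, against 462, 436 and 399 in PA1x (2.52-fold, adjusted p = 0.0108). The groups were separated, but the call was lost without PA2x replicate 2 (0.0603). JAZ4 (TIFY6b, Os09g0401300) rose 1.53-fold in PA2x over PA1x (adjusted p = 0.000395). JAZ3 (TIFY6a, Os08g0428400) was called higher in PA1x than in mock, with 814, 905 and 873 in PA1x and 691, 656 and 707 in mock (1.26-fold, adjusted p = 0.0497). That call held in 2 of the 15 fits that omit a library, those without ASM replicate 1 or 3 (highest adjusted p = 0.207). Unlike any of the 9 JAZ members, JAZ3 had its highest group mean in PA1x (864). Its PA1x libraries also lay wholly above those of PA2x (mean 720) and BABA (766), without a call, and overlapped with ASM (831). JAZ14 (Os10g0391801) and JAZ15 (Os03g0396500) were at 0 in every library, where 3 reads, the limit that a count of 0 allows, would be 1.96 to 4.84 normalised reads. JAZ2 (TIFY5, Os07g0153000) never exceeded 2.73.

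Of the receptor and co-repressor genes, COI1b was the 1 called. The TOPLESS-related co-repressor genes TPR1 (Os01g0254100), ASP1 (Os08g0162100) and TPR3 (Os03g0254700) had log2 fold changes between -0.10 and 0.10 in the 4 comparisons with mock and in PA2x against PA1x, and their lowest adjusted p in any comparison was 0.574. The receptor gene COI1b (Os05g0449500) was called lower in PA2x than in PA1x, with 501, 536 and 635 normalised reads in PA2x and 752, 794 and 848 in PA1x (log2 fold change -0.52, adjusted p = 0.0155). It lost this call without PA2x replicate 1 or 2 or PA1x replicate 3 (highest adjusted p = 0.0785). COI1b was also higher in PA1x than in ASM (0.55, adjusted p = 0.00827), a call lost without ASM replicate 3 (0.0559). COI1a (Os01g0853400) and COI2 (Os03g0265500) had -0.31 and -0.23 in PA2x against PA1x and were not called. COI1a lay wholly below mock (848 to 870 normalised reads) in PA2x (560 to 801) and BABA (691 to 775), without a call. It overlapped with mock in PA1x and ASM.

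Among bHLH factors, bHLH148 (Os03g0741100), which binds JAZ proteins in rice and acts in drought tolerance, had 1674, 1659 and 1173 normalised reads in PA2x, 570.3, 586 and 579 in PA1x and 938, 1100.1 and 820 in mock. It was 2.56-fold higher in PA2x than in PA1x (adjusted p = 1.9e-05) and fell by 0.71 on the log2 scale in PA1x against mock (adjusted p = 0.0151). The second call was lost without PA1x replicate 1, 2 or 3 or mock replicate 1 or 2 (highest adjusted p = 0.0853). RSS3 (Os11g0446000), a partner of JAZ proteins in rice root growth under salt, stood at 0.01 in PA1x against mock and -0.41 in PA2x against PA1x and was not called.

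RERJ1 (Os04g0301500), a jasmonate-responsive bHLH gene, had 3054, 3124 and 3592 normalised reads in PA2x, 1365, 1306 and 1600.5 in PA1x and 2364, 2255 and 2707 in mock. It rose 2.29-fold in PA2x over PA1x (adjusted p = 4.02e-06) and fell by 0.78 in PA1x against mock (adjusted p = 0.00107), and both calls held in the 15 fits that omit a library. Its libraries numbered 3 were the highest of these groups, unlike those of JAZ9, JAZ11 and JAZ12. Of the 3 jasmonate-responsive genes tested, RERJ1 was the 1 called in either comparison. JAmyb (Os11g0684000) was not low in PA1x against PA2x or mock. It had means of 109 normalised reads in PA1x, 94.8 in PA2x and 92.5 in mock, with overlapping libraries. Its means in ASM (142) and BABA (129) were above that of PA1x. The PA1x libraries lay wholly below ASM, without a call, and overlapped with BABA. JAmyb did not pass the F test over the groups (adjusted p = 0.413). LIS (Os02g0121700), a linalool synthase gene, had 4.03, 4.43 and 1.81 in PA1x, near the limit of 3 reads, against 18.9, 19.3 and 24.0 in ASM (adjusted p = 0.0186). That call was lost without PA1x replicate 3 or ASM replicate 3 (0.0865).

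Of the 7 tested genes that the list places under jasmonate biosynthesis, 5 were higher in PA2x than in PA1x. Whether OPR1 takes part in jasmonate synthesis was not tested. These were OPR1 (Os06g0216300, an oxophytodienoate reductase-like enzyme, 3.84-fold), AOS1 (Os03g0767000, allene oxide synthase, 2.21-fold), JAR1 (Os05g0586200, which forms the isoleucine conjugate, 1.61-fold), AOC (Os03g0438100, allene oxide cyclase, 1.59-fold) and OPR7 (Os08g0459600, 1.56-fold). OPR7 lost its call without PA2x replicate 2 (adjusted p = 0.0603). AOS2 (Os03g0225900) and JAR2 (Os01g0221100) were not called. AOS2 had means of 2596 normalised reads in PA2x and 1029 in PA1x. JAR2 went the other way, with 6.64 in PA2x and 15.4 in PA1x. Against mock, AOC and JAR1 rose with PA2x, AOC, OPR1 and JAR1 rose with ASM, and JAR1 rose with BABA, while OPR1 fell with PA1x. Of these, AOC with PA2x was lost without PA2x replicate 1 or 2 or mock replicate 1 or 2 (highest adjusted p = 0.137). JAR1 with BABA was lost without BABA replicate 1 or 2 or mock replicate 1 (0.152). OPR1 was also lower in PA2x than in ASM (-0.77, adjusted p = 0.0407), which held in 7 of the 15 fits and with neither edgeR nor DESeq2. However, edgeR and DESeq2 were run without ASM replicate 1, the highest ASM library of OPR1 (930 normalised reads). In limma the call was likewise lost without that library.

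CYP94C2b (Os12g0150200), which oxidises the active conjugate, was 2.25-fold higher in PA2x and 2.21-fold higher in ASM than in mock (adjusted p = 0.00238 and 0.000443). It was 3.10-fold higher in PA2x than in PA1x (adjusted p = 4.6e-06). Over the 22 genes, 10 were called higher and 1 lower in PA2x against PA1x, beside 8.31 and 2.96% of all tested genes. In PA1x against mock 1 was higher and 3 were lower, beside 0.399 and 3.13%. In PA1x against ASM 1 was higher and 11 were lower, beside 5.35 and 10.4%, and in PA1x against BABA 9 were lower, beside 7.61%.

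**Figure D4:**
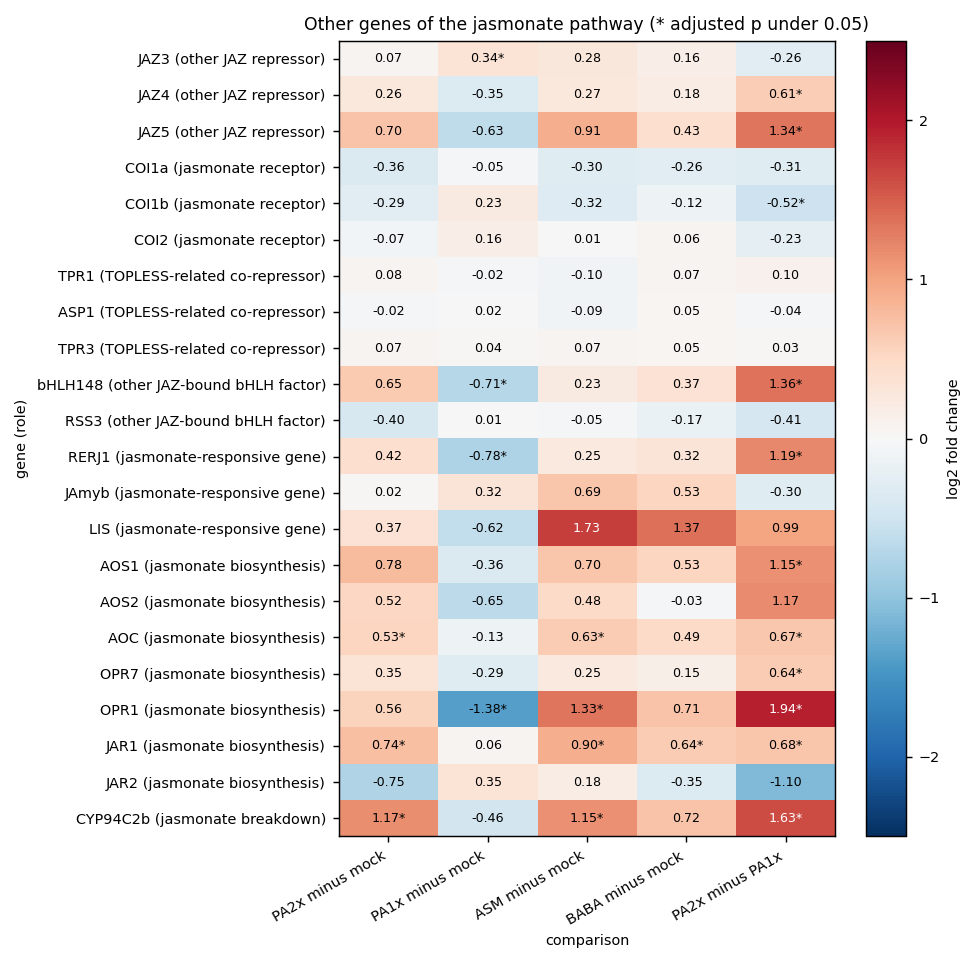
Log2 fold change (colour and printed value) of 22 other jasmonate pathway genes, ordered by role (rows), in 5 comparisons (columns); an asterisk marks an adjusted p under 0.05. The co-repressor rows stay between -0.10 and 0.10, and OPR1 (1.94) and CYP94C2b (1.63) have the highest values in PA2x minus PA1x.

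The genes whose pattern over the 15 libraries was most like that of the JAZ genes were ranked by Pearson's r of log2 values, over the 14026 genes whose mean reached 20. Most like the mean standardised JAZ profile were Os09g0543900 (r = 0.990), Os09g0365900 (0.990), Os08g0448000 (0.989), Os04g0406600 (0.988) and Os01g0314800 (0.983). Os09g0543900 had means of 6922 normalised reads in PA2x, 2089 in PA1x, 7305 in ASM, 5928 in BABA and 3926 in mock. Most like MYC2 were Os07g0418600 (0.958), Os06g0116100 (0.948), Os09g0417800 (0.919), Os09g0423600 (0.916) and Os04g0149400 (0.916). Os07g0418600 had means of 229 in PA2x, 179 in PA1x, 372 in ASM, 260.2 in BABA and 165 in mock, with ASM highest and mock lowest as for MYC2. The points share their groups and libraries, so that these values describe likeness only.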

How the data were processed

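RNA was measured with QuantSeq, which reads transcripts from their 3′ ends, per the labels' protocols. The deposited table is a signal, gene counts scaled by the authors with DESeq2 size factors. FastQC 0.11.8, Trimmomatic 0.38 and STAR 2.6.1d are also named in the submitters' processing notes. The sources used here do not give the genome build, annotation or strand setting, so overlapping and antisense genes cannot be told apart. Stepwise low values gave back whole reads (tolerance 0.1), and this recovery was accepted in 14 libraries. The values of ASM replicate 1 were also whole multiples of their step, 0.994. That step was too near 1 for the check used, so edgeR 4.0.16 and DESeq2 1.42.0 were run without that library. Its read total, and its part in the chi-square values that follow, rest on that step. Floors of 3 reads cover counting error only. Replicates differed beyond sampling noise (3.48 to 25.9 as chi-square divided by its degrees of freedom). The labels do not say that pools were grown separately, so p-values measure the spread between pools.

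Tests used limma 3.58.1 with its trend option (R 4.3.3) on log2(value + 1) of 18316 genes with a mean of at least 5. All 15 libraries entered a single model of group means, with two-sided tests, Benjamini-Hochberg adjustment over all tested genes and calls at 0.05. Fold changes on this scale understate those of low genes. The code was tested on simulated data. Alternatives were a pseudocount of 4, no filter, TMM rescaling (on the normalised values), edgeR, DESeq2, fits of 2 groups, a replicate block, a spread covariate and omitting each library; a fit of libraries numbered 1 and 2 was added after the data were seen. Members and lists were chosen with earlier results of these data known. All members are named, with the pathway genes called in a comparison, up to 3 uncalled ones a role, and the 5 genes most like each pattern. The root label was not checked against marker genes.

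The table gives identifiers only, and names come from general knowledge. In the RefSeq table (assembly ASM3414082v1) each of the 9 JAZ members has 1 namesake on the same chromosome. MYC2, RERJ1, CYP94C2b, ASP1, JAR2, JAZ14 and JAZ15 have none there, and OPR1 has 2, which may share reads.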

Additional observations from a re-analysis of the deposited data

How the results depend on the processing

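The pseudocount of 4, no filter, TMM rescaling and edgeR moved none of the counts of called members by over 1.5 times, nor did the replicate block. The deviations of same-numbered libraries had r of -0.339 to 0.4 (median 0.0563, 9 of 30 pairs over 0.1), against -0.373 to 0.326 for different numbers (median -0.00925, 16 of 60 over 0.1). Of 15 libraries 8 matched best with one of their own number, and those numbered 3 lay low on the spread axis in 4 groups. Since not every pair passed 0.1 and the labels name no shared source, the numbers were not taken as pairs. With the block 1 member was called in PA2x, 4 in PA1x, 4 in ASM and 0 in BABA against mock, and 9 in PA2x against PA1x, where JAZ8 was gained (adjusted p = 0.0389), as was JAZ12 in PA1x against BABA (0.0321). For PA2x against mock, where 1 member was called, the count was 4 with DESeq2, 0 with only the 2 groups compared, 7 with the spread axis as a covariate and 2 with the libraries numbered 1 and 2 only. For ASM against mock it was 4, and 1, 7 and 1 with the last 3 of these settings. With the spread axis it was 4 in place of 0 for BABA against mock and 1 in place of 0 for PA2x against ASM. Over all genes, 170 calls in PA2x against mock became 443 with DESeq2, 23 with the 2 groups and 692 with the axis. The 830 of ASM became 394, 1698 and, with libraries 1 and 2, 503. The 46 of BABA became 121 with edgeR, 247 with DESeq2, 10 with the 2 groups and 542 with the axis, and the 646 of PA1x became 1148 with the axis. Apart from the axis, which lowers the spread by construction, the cause was not tested. Leaving out 1 library gave 0 to 2 called members for PA2x against mock, 2 to 4 for PA1x, 1 to 5 for ASM and 0 to 0 for BABA. It gave 5 to 9 for PA2x against PA1x, 7 to 10 for PA1x against ASM, 4 to 8 for PA1x against BABA, 0 to 0 for the other 3 comparisons and 5 to 10 for the F test. Of the single values, 5 changed sign, in 6 fits, and none of them was called. JAZ8 in PA1x against mock ran from -0.0271 to 0.144 with 1 library left out, below 0 without PA1x replicate 1 (-0.0251) or mock replicate 3. JAZ11 in BABA against mock ran from -0.0303, without mock replicate 3, to 0.571. In ASM against mock, JAZ9, JAZ11 and JAZ12 were -0.0255, -0.0948 and -0.0403 with the libraries numbered 1 and 2 only.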
